A study of Saccharomyces cerevisiae BY4741 with 8 samples.

Results

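The interaction of strain and vanillin was measured as the difference between the vanillin responses of 2 yeast strains, BY4741(yrr1Δ) and its parent BY4741. For each gene, the log2 change from SD to SD with 5 mM vanillin in BY4741 was subtracted from the same change in BY4741(yrr1Δ). An interaction below 0 therefore marks a gene that vanillin raised less, or lowered more, when YRR1 was absent. All 8 libraries of the series entered the comparison, and 5506 of 5782 genes were tested. Ribosome biogenesis genes also lie among those with an interaction and are left aside here, except where their level moves with that of another group.

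Both strains share the auxotrophic background of BY4741, a MATa laboratory strain with deletions in HIS3, LEU2 and URA3 and in a methionine gene, and only YRR1 was deleted in addition. RNA was taken in 4 conditions, BY4741 in SD, BY4741 with vanillin, BY4741(yrr1Δ) in SD and BY4741(yrr1Δ) with vanillin, with 2 replicate cultures each. Cells were collected in log phase at similar density, and the number of deletion clones grown is not given in the sources used here. The libraries held 2195324 to 2453837 expected counts, the estimated reads of each gene. YRR1 had 77, 73, 82 and 100 counts in the BY4741 libraries and 0 to 2 in those of the deletion strain. HIS3, of which the strains carry a partial deletion, had 51 to 181 counts. LEU2 and URA3 had at most 2 counts in every library, and the a-cell receptor gene STE2 had 986 to 1706 counts against 15 to 35 for the alpha-cell receptor gene STE3. MET17 had 0 to 9 counts, whereas MET5, which the genotype in the study's methods lists as deleted, had 300 to 585.

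Yrr1p is a zinc-cluster transcription factor that turns on genes of multidrug resistance, among them those for the efflux pumps Snq2p and Yor1p, and it shares this task with the regulators Pdr1p and Pdr3p and with Yap1p, the regulator of the oxidative stress response. Vanillin is a phenolic aldehyde released from lignin that slows the growth of yeast, which reduces it to the less harmful vanillyl alcohol with NADPH-dependent dehydrogenases. Genes that answer drugs, oxidants, nitrogen supply, zinc and inositol each carry short regulatory sequences in their promoters, so the promoters of the genes described below were searched for 6 of them in the 800 bases before the annotated start of each gene, on both strands, in the R64 genome.

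Among the 13 genes of a list of Yrr1p targets, 3 promoters (SNQ2, CIS1 and LAF1) held the pleiotropic drug response element TCCGCGGA, which was present in 0.917% of 5997 promoters. It was also in 3 of 13 promoters of ATP-binding cassette drug transporters (PDR15, PDR5 and SNQ2). No separate site of Yrr1p was among the 6 motifs searched. The promoter of SNG1, a further gene of this target list, held none of the 6. The Yap1p site TTACTAA was found in 6 of the 13 (46.2%) and in 17 of 36 oxidative stress genes (47.2%), against 17.3% of all promoters. These stretches of RefSeq sequence are shown because they hold a match in the promoters of genes whose response is described in detail below. They run 5′ to 3′ on the strand of the gene, with the motif in capitals, and a motif on the other strand appears as its reverse complement.
SNQ2, chrIV:465304-465353, plus strand: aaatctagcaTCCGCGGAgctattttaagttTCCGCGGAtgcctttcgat
YLR046C, chrXII:238909-238948, minus strand: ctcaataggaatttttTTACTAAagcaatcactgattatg
YLL056C, chrXII:28461-28500, minus strand: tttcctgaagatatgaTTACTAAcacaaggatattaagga
OYE3, chrXVI:227502-227591, minus strand: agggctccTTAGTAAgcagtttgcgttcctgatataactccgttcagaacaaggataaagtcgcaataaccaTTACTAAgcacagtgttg
BDH1, chrI:34735-34774, plus strand: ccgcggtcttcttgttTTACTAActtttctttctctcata

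A second set comes from the nutrient genes. GATAAG, the site of the nitrogen regulators Gln3p and Gat1p, was present in 29 of 45 nitrogen genes (64.4%) and in 33.6% of all promoters. The zinc response element, ACCTT and AAGGT with a single base of any kind between them, was present in 3 of 20 zinc genes, MCD4, ZRG17 and ZRT1, and in 0.217% of all promoters. The promoter of ZPS1, a zinc gene described below, did not hold it. CATGTG, the core of the element read by Ino2p and Ino4p, was present in 16 of 23 inositol and phospholipid genes (69.6%) and in 21.2% of all promoters. CCCCT, the stress response element of Msn2p and Msn4p, was present in 36 of 39 general stress genes (92.3%) and in 48.2% of all promoters. A match is a description of the sequence and not evidence of binding.
DAL3, chrIX:415718-415797, minus strand: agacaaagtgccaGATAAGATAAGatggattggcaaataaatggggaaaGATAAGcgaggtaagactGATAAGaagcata
GAP1, chrXI:514713-514832, plus strand: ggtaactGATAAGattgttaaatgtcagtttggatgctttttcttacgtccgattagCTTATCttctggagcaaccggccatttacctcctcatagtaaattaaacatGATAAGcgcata
ZRT1, chrVII:20758-20799, plus strand: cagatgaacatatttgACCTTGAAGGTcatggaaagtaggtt
INO1, chrX:136104-136183, minus strand: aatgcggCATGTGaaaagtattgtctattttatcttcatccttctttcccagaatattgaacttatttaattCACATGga

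An interaction past an FDR of 0.05 was carried by 5 genes, SNG1, ZPS1, GPG1, TDH1 and BDH1. In all 5 (0.0908% of the genes tested) it was below 0, and no gene was called above 0, against 60 of 216 genes called with DESeq2. SNG1 is a drug resistance gene, ZPS1 a zinc-regulated cell surface gene, GPG1 a gene for a partner of the G protein of glucose sensing, TDH1 a glycolytic gene and BDH1 the gene for butanediol dehydrogenase. The FDR was the Benjamini-Hochberg adjusted p over all genes from edgeR's quasi-likelihood test. The number called moved with single libraries. With replicate 2 of BY4741(yrr1Δ) in SD left out, 93 genes were called, and 2 were called when replicate 2 of the BY4741 vanillin pair was left out. Leaving out any one of the other 6 libraries gave 0 calls. The interaction of the 5 genes kept its sign in all 80 values from 16 alternatives, with an FDR between 2.39e-12 and 0.224.

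The single responses counted 173 genes (3.14%) in BY4741 and 617 (11.2%) in BY4741(yrr1Δ) at the same FDR. At an unadjusted p under 0.05, 1130 genes (20.5%) had an interaction. Of these, 652 genes (11.8%) had an interaction below 0 and 478 (8.68%) one above 0. Later counts of list members at this p stand beside these shares of all genes. By their fitted values, 459 of the 652 were higher with vanillin in BY4741 and lower in BY4741(yrr1Δ). Choosing genes by the difference of the responses favours such opposite signs. Among 96 genes called in both responses, 2 had opposite signs. Of the 652, 60 rose in BY4741 and 243 fell in BY4741(yrr1Δ) at an FDR of 0.05, directions that the choice of genes also favours. Over all genes, 128 rose in BY4741 and 365 fell in BY4741(yrr1Δ) at that FDR. On the other side, 425 of the 478 genes had fitted values that were lower in BY4741 and higher in BY4741(yrr1Δ), which the same choice favours. Of the 478, 104 were ribosome biogenesis genes, a list with 177 of the 5506 genes tested. The balance of these counts depends on the scaling. With library size alone in place of TMM factors, 848 of 1251 genes had an interaction above 0, and the median of all genes moved from 0.0047 to 0.22. The plot of both responses shows the same 5506 genes.

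**Figure D1:**
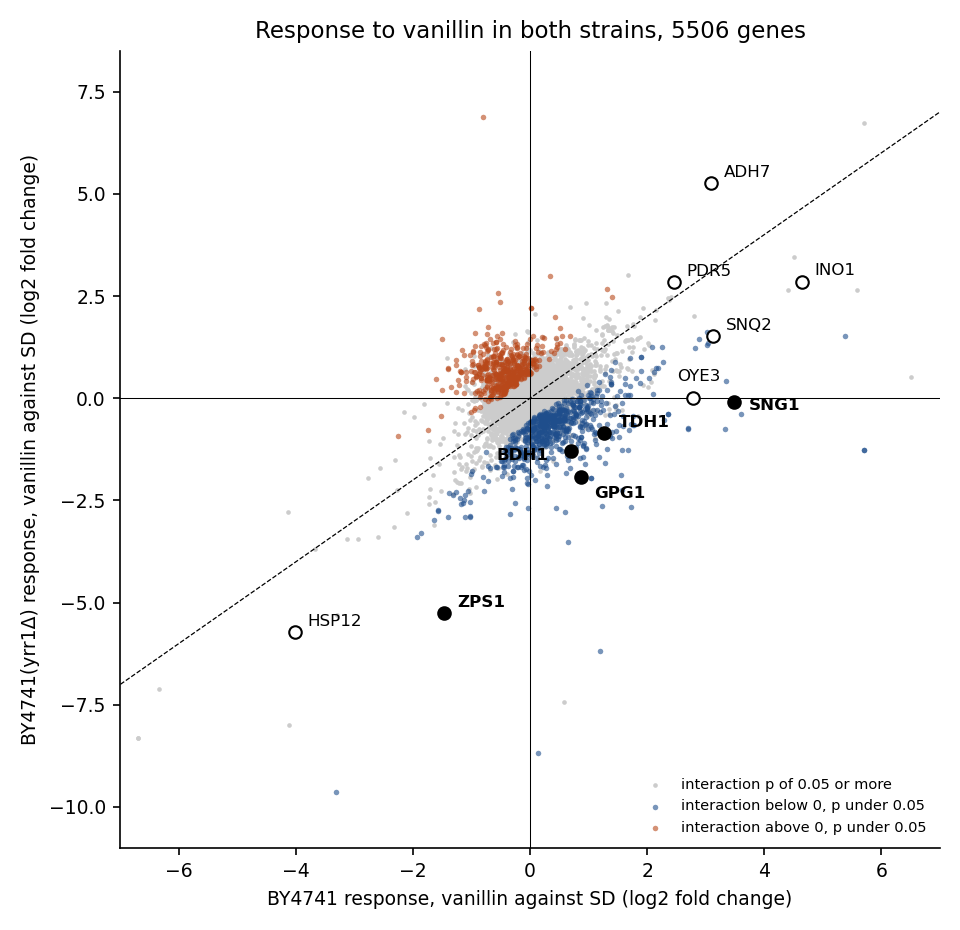
Response to vanillin of 5506 genes in BY4741 (x axis) and BY4741(yrr1Δ) (y axis), both as log2 fold changes from SD to SD with vanillin. The dashed line marks equal responses, blue and orange points have an interaction with an unadjusted p under 0.05, and large filled points are the 5 genes with an FDR of 0.05 or less, all of which lie below the line. Open points are other genes named in the text, such as ADH7 at 3.10 and 5.26.

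SNG1, a gene for resistance to nitrosoguanidine, rose with vanillin in BY4741 and showed no such rise without YRR1. Its level was 30.7 and 52.4 CPM in BY4741 in SD and 431 and 502 CPM with vanillin, an 11.2-fold rise (log2 3.49, FDR = 0.00148). CPM are counts relative to the TMM-scaled library size. In BY4741(yrr1Δ) the level was 49.6 and 28.6 CPM in SD and 42.3 and 30.9 CPM with vanillin (log2 -0.09, FDR = 0.885). The deletion strain thus overlapped BY4741 in SD in both media, and the interaction was -3.58 ± 0.47 (SE, n = 2 per condition, FDR = 0.0374 from edgeR's test).

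SNQ2 encodes an ATP-binding cassette (ABC) efflux pump of the plasma membrane. It was at 199 and 172 CPM in BY4741 in SD and at 1514 and 1737 CPM with vanillin, an 8.77-fold rise (FDR = 0.000151). In BY4741(yrr1Δ) it went from 175 and 216 CPM to 535 and 579 CPM, a 2.85-fold rise (FDR = 0.00276). The SD libraries of both strains overlapped and the vanillin libraries did not. Its interaction of -1.62 ± 0.25 missed the threshold (FDR = 0.0787 from edgeR's test), and the value lay between -1.75 and -1.46 when each library was left out.

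Further genes of the Yrr1p target list followed the pattern of SNQ2 in their levels. YLR046C, a gene for a predicted membrane protein, had 47.5 and 41.6 CPM in BY4741 in SD and 344 and 382 CPM with vanillin, against 79.9 and 65.3 CPM and then 210 and 150 CPM in BY4741(yrr1Δ). YLL056C, of unknown function, went from 21.2 and 14.3 CPM to 122 and 129 CPM in BY4741 and from 16.8 and 13.5 CPM to 36.3 and 34 CPM in BY4741(yrr1Δ). Both rose in both strains (FDR between 0.000313 and 0.0175), and in both genes the 2 vanillin libraries of BY4741 lay above those of the deletion strain. Their interactions were -1.71 ± 0.32 and -1.60 ± 0.34 (FDR = 0.101 for both from edgeR's test). YLR179C rose in BY4741 (log2 1.36, FDR = 0.019), had a log2 change of 0.52 in BY4741(yrr1Δ) (FDR = 0.18) and an interaction of -0.84.

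Of the 13 Yrr1p targets tested, 7 rose in BY4741 and 6 in BY4741(yrr1Δ), where 2.32% and 4.58% of all genes rose. SNG1 passed the interaction test, 5 had an interaction below 0 at an unadjusted p under 0.05 and none had one above 0. The median interaction of the list was -0.61, beside 0.0047 over all genes, and it lay between -0.90 without replicate 2 of BY4741 in SD and -0.41 without replicate 2 of BY4741(yrr1Δ) with vanillin. CIS1 had 2 and 0 counts in BY4741 in SD and 68 and 31 with vanillin, against 2 and 3 and then 17 and 20 counts in BY4741(yrr1Δ), and the unadjusted p of its interaction was 0.056 in edgeR's test. The other target genes spread around 0. YOR1, the second ABC pump assigned to Yrr1p, had an interaction of 0.18 (FDR = 0.748) that turned to -0.03 without replicate 2 of BY4741(yrr1Δ) with vanillin, and that of AZR1 was -0.03.

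**Figure D2:**
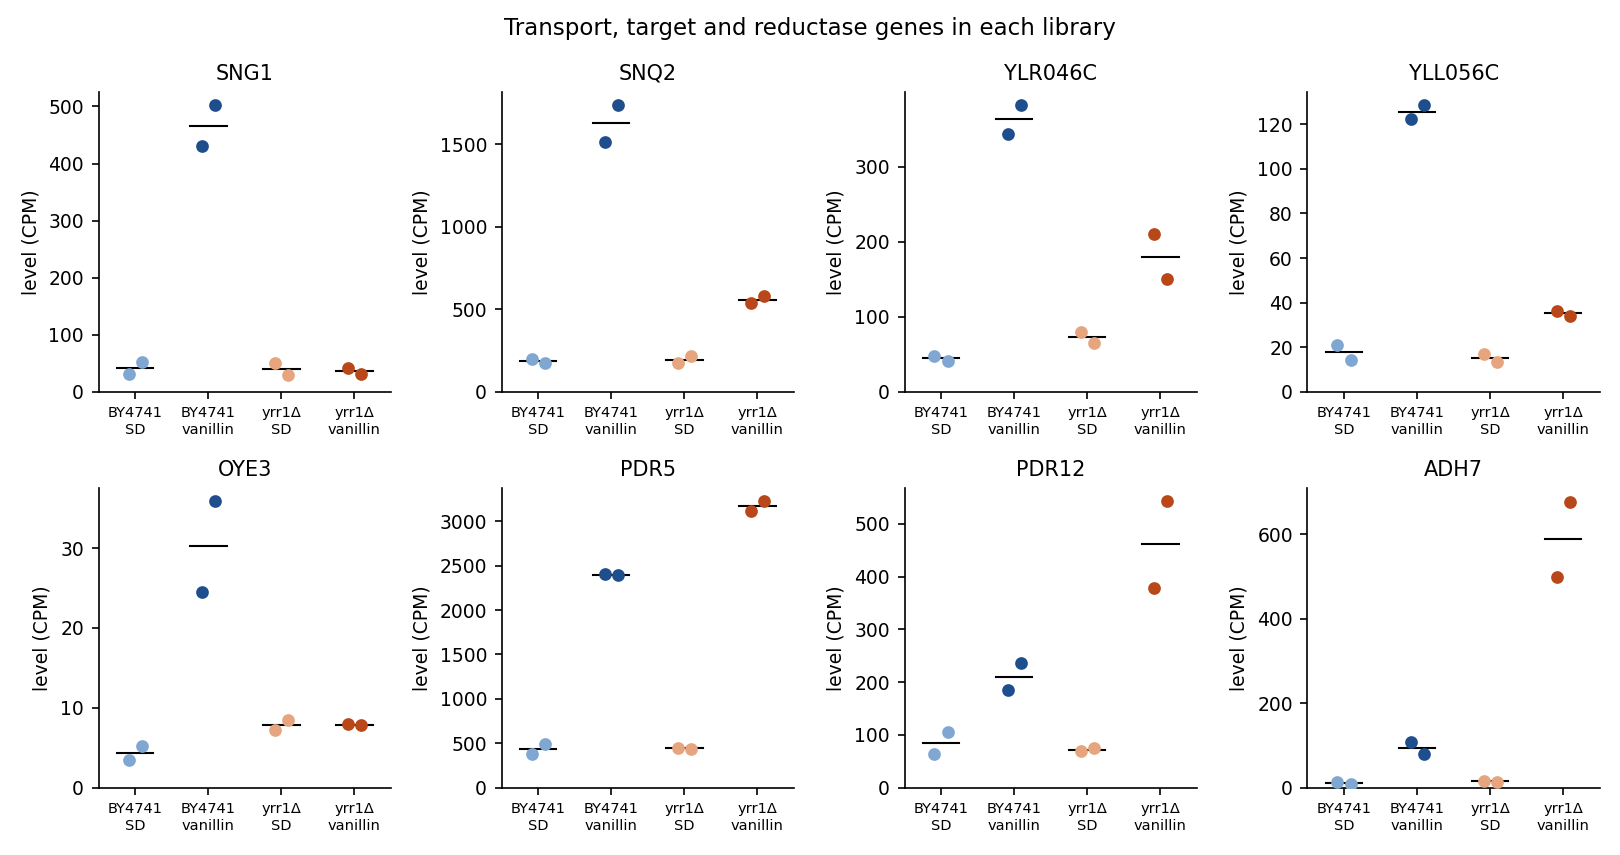
Level in CPM (y axis, from 0) of 8 genes in each of 8 libraries, by strain and medium (x axis). Points are single libraries and the line is the mean of 2. SNG1 and OYE3 are high in BY4741 with vanillin alone, SNQ2, YLR046C and YLL056C are highest there, PDR5 is at 2395 CPM or more in all 4 vanillin libraries, and PDR12 and ADH7 are highest in BY4741(yrr1Δ) with vanillin.

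The remaining ABC pumps did not share one pattern. PDR5, the main drug efflux pump under Pdr1p control, was at 383 and 493 CPM in BY4741 in SD and at 2403 and 2395 CPM with vanillin, and at 451 and 433 CPM and then 3116 and 3231 CPM in BY4741(yrr1Δ). It rose in both strains (FDR = 0.000245 and 9.83e-05), and its interaction was 0.39 ± 0.24 (FDR = 0.378). PDR12, the exporter of weak organic acids, rose by 1.32 in BY4741 and by 2.68 in BY4741(yrr1Δ) on the log2 scale, with vanillin levels of 185 and 236 CPM and of 378 and 544 CPM. Its interaction was 1.36 ± 0.40 (FDR = 0.137). PDR15 and PDR10, both related to PDR5, had interactions of -0.96 and 0.28. Across the 13 ABC genes the median was 0.18, and 0.03 without replicate 2 of BY4741(yrr1Δ) with vanillin. At an unadjusted p under 0.05, 1 gene was above 0 and 2 were below 0, beside 8.68% and 11.8% of all genes. Among 11 regulators of drug resistance, RDR1, a repressor of PDR5, had the smallest p. It rose in BY4741 (log2 1.21, FDR = 0.036) and had a log2 change of -0.06 in BY4741(yrr1Δ). PDR1 had an interaction of 0.74, and AQR1, a multidrug transporter of the major facilitator family, fell in both strains, by 2.26 in BY4741 and by 0.94 in BY4741(yrr1Δ).

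Genes in the list of alcohol dehydrogenases and aldehyde reductases, which also holds old yellow enzymes, parted in both directions. OYE3, an NADPH oxidoreductase (old yellow enzyme), had 3.45 and 5.20 CPM in BY4741 in SD and 24.5 and 35.9 CPM with vanillin (FDR = 0.00449). In BY4741(yrr1Δ) it had 7.22 and 8.42 CPM in SD and 7.98 and 7.83 CPM with vanillin. The interaction was -2.78 ± 0.52 (FDR = 0.101 from edgeR's test). The 2 vanillin libraries of BY4741 stood above the 6 other libraries.

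ADH7, an NADPH-dependent medium-chain alcohol dehydrogenase, showed the opposite. It went from 13.8 and 8.23 CPM to 109 and 80.2 CPM in BY4741, an 8.56-fold rise (FDR = 0.00149), and from 16.4 and 14.3 CPM to 500 and 676 CPM in BY4741(yrr1Δ), a 38.3-fold rise (FDR = 8.08e-05). Its interaction was 2.16 ± 0.43 (FDR = 0.101), between 1.76 and 2.49 when each library was left out. The levels of the strains overlapped in neither medium.

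BDH1, which interconverts acetoin and butanediol, rose in one strain and fell in the other. It was at 443 and 417 CPM in BY4741 in SD and at 708 and 692 CPM with vanillin (log2 0.70, FDR = 0.0448). In BY4741(yrr1Δ) it was at 690 and 625 CPM in SD and at 268 and 267 CPM with vanillin (log2 -1.30, FDR = 0.00273). The interaction was -2.0 ± 0.22 (FDR = 0.0374) and stayed between -2.07 and -1.91 when each library was left out. In SD the deletion strain lay above BY4741, and with vanillin it lay below. GRE2, a methylglyoxal reductase, rose in both strains, by 1.38 and by 0.69, with an interaction of -0.69 (FDR = 0.165).

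Of 27 alcohol dehydrogenases and aldehyde reductases tested, 8 had an interaction below 0 and 2 above 0 at an unadjusted p under 0.05, with a median of -0.49 that was -0.21 without replicate 1 of BY4741(yrr1Δ) in SD. Only BDH1 among them passed the FDR. Of 7 aldehyde dehydrogenases, which oxidize aldehydes, 3 fell and 1 rose in BY4741(yrr1Δ) at an FDR of 0.05, where 6.63% and 4.58% of all genes did. ALD4, the mitochondrial aldehyde dehydrogenase, was at 556 and 720 CPM in BY4741 with vanillin and at 299 and 260 CPM in BY4741(yrr1Δ), where it fell by 1.19 (FDR = 0.012). ALD2, a cytosolic form, fell by 0.96 in BY4741(yrr1Δ) (FDR = 0.019) and had a log2 change of 0.02 in BY4741. The interactions of ALD4 and ALD2 were -1.55 and -0.98. ALD3 fell in both strains, by 2.1 in BY4741 and by 2.8 in BY4741(yrr1Δ), with an interaction of -0.71. ALD5 rose by 1.14 in BY4741(yrr1Δ), had a log2 change of 0.36 in BY4741 and an interaction of 0.78. The 7 aldehyde dehydrogenases had a median of -0.57, which was -0.85 without replicate 1 of BY4741 in SD, and -0.27 when replicate 2 of BY4741(yrr1Δ) in SD was left out.

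Glycolytic genes made up one of the groups farthest below 0. TDH1, an isoenzyme of glyceraldehyde-3-phosphate dehydrogenase, rose from 3094 and 3270 CPM to 8944 and 6377 CPM in BY4741 (log2 1.27, FDR = 0.010) and fell from 4380 and 3879 CPM to 2402 and 2181 CPM in BY4741(yrr1Δ) (log2 -0.85, FDR = 0.0268). Its interaction was -2.12 ± 0.28 (FDR = 0.0374 from edgeR's test). TDH1 and BDH1 were the 2 genes, among 96 called in both responses, whose responses had opposite signs.

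ENO1, an enolase, was at 5385 and 6361 CPM and then 9604 and 9400 CPM in BY4741, and at 8699 and 6724 CPM and then 4496 and 2930 CPM in BY4741(yrr1Δ), an interaction of -1.75 (FDR = 0.101). The minor pyruvate decarboxylase genes PDC5 and PDC6 rose in BY4741 by 3.05 and 1.68, and in BY4741(yrr1Δ) PDC5 rose by 1.36 and PDC6 had a log2 change of 0.07. GLK1, the glucokinase gene, fell by 1.64 in BY4741(yrr1Δ) and had a log2 change of 0.25 in BY4741. It overlaps YCL042W, so that reads of both cannot be told apart. Of the 20 genes of glycolysis and fermentation, 14 had an interaction below 0 at an unadjusted p under 0.05, with TDH1 the only one past the FDR, and none had one above 0. The median was -0.79, between -1.02 and -0.59 when each library was left out. Among the 20, 4 rose in BY4741 and none fell, whereas 7 fell in BY4741(yrr1Δ), where 6.63% of all genes fell, and 2 rose.

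**Figure D3:**
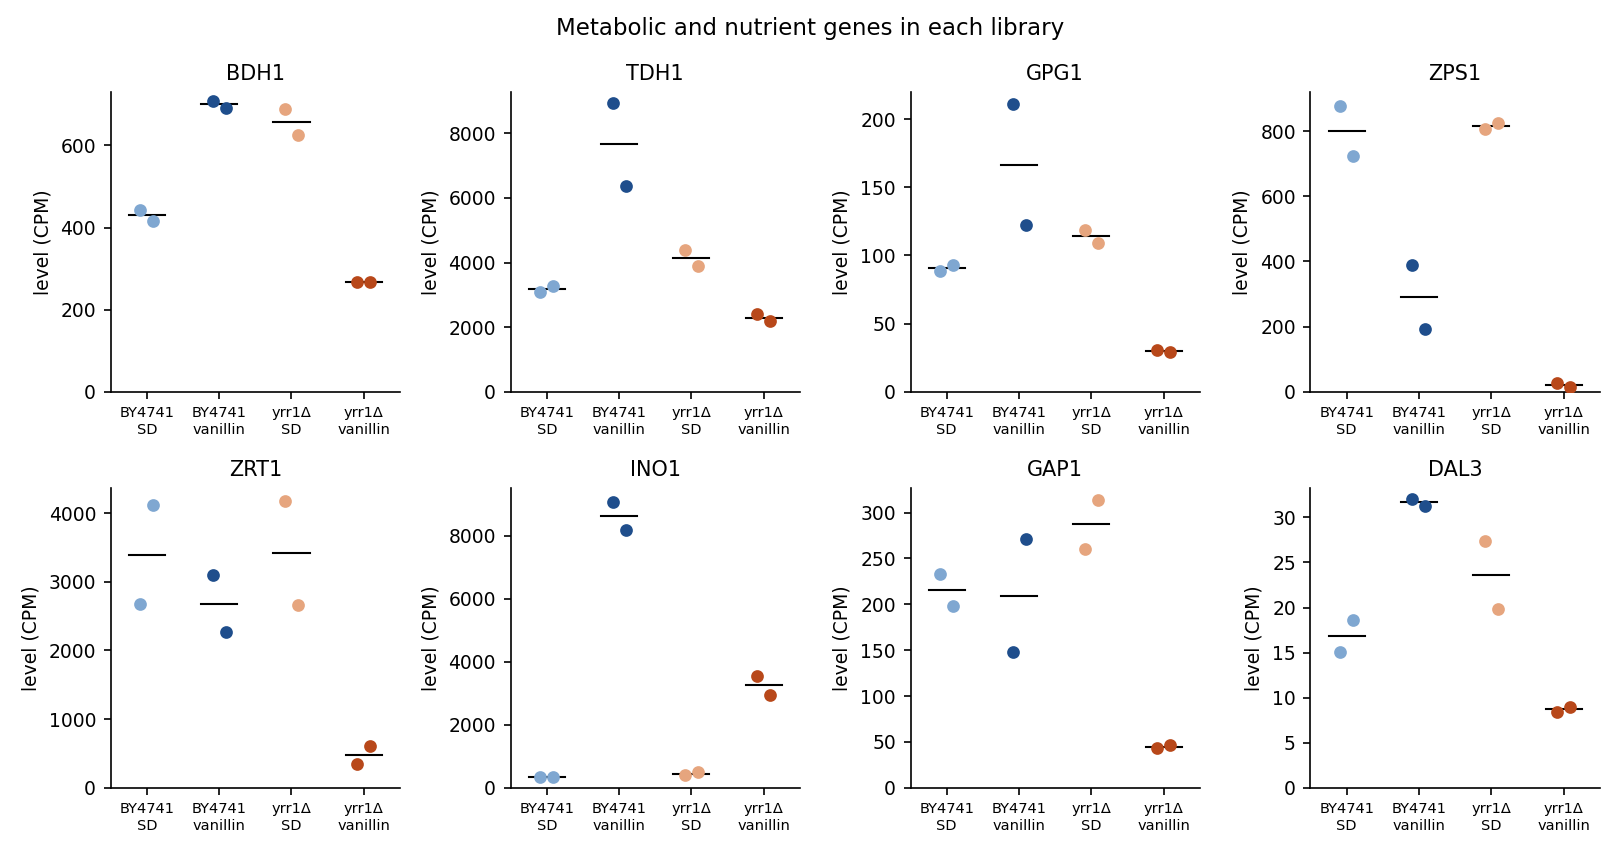
Level in CPM (y axis, from 0) of 8 metabolic and nutrient genes in each of 8 libraries, by strain and medium (x axis). Points are single libraries and the line is the mean of 2. BDH1 and TDH1 rise with vanillin in BY4741 and fall in BY4741(yrr1Δ), ZPS1, ZRT1 and GAP1 are lowest in BY4741(yrr1Δ) with vanillin, and INO1 is at 2938 CPM or more in all 4 vanillin libraries.

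Genes of respiration lay on the same side. QCR6, a subunit of the cytochrome bc1 complex, rose in BY4741 from 99.7 and 73.2 CPM to 182 and 228 CPM (FDR = 0.027), and was at 118 and 116 CPM and then 81.0 and 111 CPM in BY4741(yrr1Δ). COX5B, a cytochrome c oxidase subunit, was at 135 and 107 CPM with vanillin in BY4741 and fell from 167 and 146 CPM to 60.6 and 56.7 CPM in BY4741(yrr1Δ) (FDR = 0.0043). Their interactions were -1.53 and -1.31 (FDR = 0.101 for both). COX13 and CYT1 fell in BY4741(yrr1Δ), by 1.06 and by 0.92, and ATP15, the epsilon subunit of ATP synthase, had an interaction of -2.60 from levels of 3.52 to 23.1 CPM.

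None of the 33 respiratory chain genes passed the interaction FDR. At an unadjusted p under 0.05, 18 had an interaction below 0 and none above 0, and 31 of the 33 values were negative, with a median of -0.91. That median was -0.86 with 1 gene near 0 counts set to its bound. Of 31 genes of the TCA cycle and gluconeogenesis, 10 were below 0 and 1 was above 0 at an unadjusted p under 0.05. Their median was -0.50, and -0.76 and -0.31 without replicates 1 and 2 of BY4741(yrr1Δ) with vanillin. MDH1, mitochondrial malate dehydrogenase, fell by 1.02 in BY4741(yrr1Δ) and ACS1, an acetyl-CoA synthetase, by 0.90. Mitochondrial ribosomal protein genes had a smaller median of -0.39, with 13 of 70 below 0 at an unadjusted p under 0.05, where 11.8% of all genes were. The 135 cytosolic ribosomal protein genes had 4 on each side at that p. Their median of -0.05 was 0.19 and -0.27 without replicates 1 and 2 of BY4741(yrr1Δ) in SD.

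The oxidative stress genes included several that remove peroxides. TSA1, the main cytosolic peroxiredoxin, was at 2302 and 2317 CPM and then 3144 and 2890 CPM in BY4741, and fell from 2997 and 2656 CPM to 1804 and 1705 CPM in BY4741(yrr1Δ) (FDR = 0.024). Its interaction was -1.07 ± 0.22 (FDR = 0.101). GRX1, a glutaredoxin, fell by 1.37, MXR2, a mitochondrial methionine sulfoxide reductase, by 1.34 and TRX2, a thioredoxin, by 1.16 in BY4741(yrr1Δ), with log2 changes of -0.10, 0.16 and 0.44 in BY4741. PRX1, the mitochondrial peroxiredoxin, had an interaction of -1.45. Of the 36 oxidative stress genes, 16 had an interaction below 0 at an unadjusted p under 0.05, none above 0 and none past the FDR, with a median of -0.64. In BY4741(yrr1Δ) 16 of them fell and 1 rose, against 2 and 1 in BY4741, where 0.817% of all genes fell.

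The general stress genes had the lowest median of the 43 lists with members tested, -1.05 over 39 genes, of which 19 were below 0 at an unadjusted p under 0.05, none above 0 and none past the FDR. HSP12, a membrane-bound small heat shock protein gene, fell in both strains, from 2078 and 2538 CPM to 164 and 120 CPM in BY4741 and from 4348 and 2758 CPM to 57.8 and 77.1 CPM in BY4741(yrr1Δ). It fell by 4.02 in BY4741 and fell by 5.72 in BY4741(yrr1Δ) on the log2 scale, an interaction of -1.70 ± 0.38 (FDR = 0.101). HSP26, a further small heat shock protein gene, had 1600 and 1120 CPM with vanillin in BY4741 and 781 and 681 CPM in BY4741(yrr1Δ). TMA17, an assembly factor of the proteasome, fell by 1.77 in BY4741(yrr1Δ) and had a log2 change of -0.02 in BY4741. FMP16, of unknown function, had 90 and 103 counts in BY4741(yrr1Δ) in SD and 0 and 0 with vanillin, at least 36.6-fold lower against a floor of 3 counts per library, and 82 and 61 and then 10 and 3 counts in BY4741. Such floors cover counting error only. With the 2 genes at the floor set to their bounds the median of the list was -0.94.

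The level of the general stress list was not steady between the replicates of BY4741 in SD. Its median centred level, the median over genes of the log2 CPM less each gene's mean over the 8 libraries, was 0.59 and -0.09 in BY4741 in SD, 0.78 and 0.80 in BY4741(yrr1Δ) in SD, -0.24 and -0.07 in BY4741 with vanillin and -0.59 and -1.12 in BY4741(yrr1Δ) with vanillin. The median interaction was -1.27 without replicate 1 of BY4741 in SD and -0.75 without replicate 2. Ribosome biogenesis genes had the opposite order in BY4741 in SD, at -0.38 and 0.61. They were at 0.14 and -0.71 in BY4741(yrr1Δ) in SD, where the stress list hardly differed, and at 0.54 and 0.59 in BY4741(yrr1Δ) with vanillin. What part this difference between SD replicates has in the interaction of the stress and growth genes was not tested. Both vanillin libraries of BY4741(yrr1Δ) lay below the 6 other libraries for the stress, respiratory chain, glycolysis and oxidative stress lists.

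**Figure D4:**
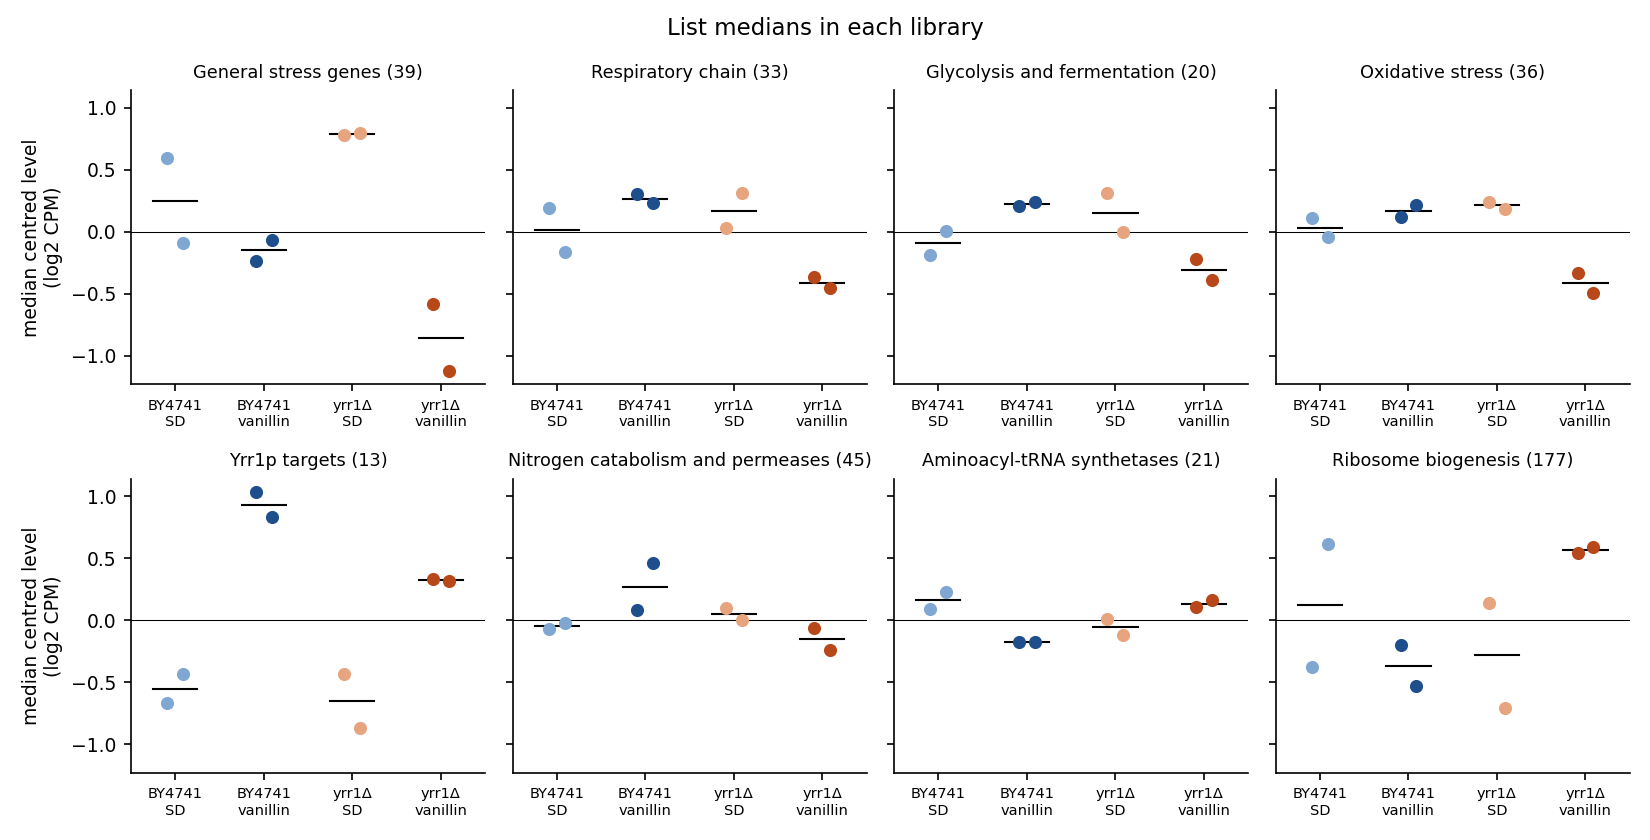
Median centred level of 8 gene lists (y axis, log2 CPM less the mean of each gene over the 8 libraries) in each library, by strain and medium (x axis), with the number of genes in brackets. Points are single libraries and the line is the mean of 2. General stress genes are lowest at -0.59 and -1.12 in BY4741(yrr1Δ) with vanillin, and Yrr1p targets are highest at 1.03 and 0.83 in BY4741 with vanillin.

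Storage carbohydrate genes, which the cell uses as reserves and stress protectants, were examined next. GPH1, glycogen phosphorylase, fell by 2.08 and TPS1, trehalose-6-phosphate synthase, by 1.69 in BY4741(yrr1Δ), with log2 changes of -0.05 and -0.59 in BY4741. The median of 21 trehalose and glycogen genes was -0.74, with 4 below 0 at an unadjusted p under 0.05, but it was -0.31 without replicate 2 of BY4741(yrr1Δ) in SD. GUT2, the mitochondrial glycerol-3-phosphate dehydrogenase, fell by 1.88 in BY4741(yrr1Δ), and 6 of 11 glycerol genes were below 0 at an unadjusted p under 0.05. ZWF1 and GND2, which yield NADPH in the pentose phosphate pathway, had interactions of -1.81 (FDR = 0.149) and -1.34 (FDR = 0.115) by edgeR's quasi-likelihood test. That of ZWF1, whose replicates were at 354 and 167 CPM in BY4741(yrr1Δ) in SD and at 229 and 388 CPM in BY4741 with vanillin, was -1.15 without replicate 1 of BY4741(yrr1Δ) in SD. GND2 fell in both strains, by 1.65 and by 2.98. Of 35 heat shock chaperones, 9 were below 0 and 2 above 0 at an unadjusted p under 0.05. The Hsp70 genes SSA1 and SSA4 fell by 1.36 and 1.23 in BY4741(yrr1Δ). The median of that list, -0.16, turned to 0.04 without replicate 2 of BY4741(yrr1Δ) in SD, where the median of all genes was also 0.04.

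Nitrogen genes on the low side included permeases and enzymes of nitrogen breakdown. GAP1, the general amino acid permease, was at 233 and 198 CPM in BY4741 in SD and 148 and 271 CPM with vanillin, and fell from 261 and 313 CPM to 43.5 and 46.2 CPM in BY4741(yrr1Δ) (FDR = 0.00209). Its interaction was -2.64 ± 0.40 (FDR = 0.0741). MEP2, an ammonium permease and sensor, rose from 43.6 and 71.9 CPM to 139 and 190 CPM in BY4741 (FDR = 0.0347) and was at 92.9 and 58.1 CPM and then 36.3 and 41.9 CPM in BY4741(yrr1Δ). DAL3, which acts in the breakdown of allantoin, was at 32.1 and 31.2 CPM with vanillin in BY4741 and fell from 27.4 and 19.8 CPM to 8.38 and 9.0 CPM in BY4741(yrr1Δ) (FDR = 0.0158).

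For each of these nitrogen genes the vanillin libraries of the strains were apart, with BY4741 higher. The interactions of MEP2 and DAL3 were -2.46 and -2.34 (FDR = 0.101 and 0.0837 from edgeR's test). CAR2, ornithine transaminase, had 55.2 and 110 CPM with vanillin in BY4741 and 16.8 and 19.6 CPM in BY4741(yrr1Δ), but its replicates in the deletion strain in SD differed, at 133 and 41.7 CPM. Its interaction of -3.83 ranged from -4.48 to -2.75 when each library was left out. ALP1, an arginine permease, had one of -2.25. Of 45 nitrogen genes, 14 were below 0 and 1 was above 0 at an unadjusted p under 0.05. None passed the FDR, and the median was -0.58.

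The zinc genes divided within the list. ZPS1, a cell surface gene under control of the zinc sensor Zap1p, fell in both strains, from 877 and 724 CPM to 388 and 192 CPM in BY4741 (log2 -1.47, FDR = 0.0490) and from 807 and 826 CPM to 26.7 and 15.7 CPM in BY4741(yrr1Δ) (log2 -5.27, FDR = 0.000262). The interaction of -3.80 ± 0.49 (FDR = 0.0374) lay between -4.23 and -3.20 when each library was left out. ZRT1, the high-affinity zinc importer, was at 2672 and 4123 CPM and then 3097 and 2263 CPM in BY4741, and fell 7.12-fold from 4175 and 2668 CPM to 345 and 615 CPM in BY4741(yrr1Δ) (FDR = 0.00344). ZAP1 itself fell by 1.35, the vacuolar zinc exporter ZRT3 by 0.99 and ADH4, an alcohol dehydrogenase induced by low zinc, by 2.57 in BY4741(yrr1Δ). Their interactions were -1.38, -1.23 and -1.41, with FDR of 0.101 to 0.181 and that of ADH4 at -0.69 without replicate 1 of BY4741 with vanillin, and that of ZRT1 was -2.49 ± 0.49 (FDR = 0.101). MCD4 and ZRG17, whose promoters also held the zinc element, had interactions of 0.06 and 0.50. In all, 6 of 20 zinc genes were below 0 and none above 0 at an unadjusted p under 0.05. By sign alone 13 were below 0 and 7 above 0. The median was -0.10 and turned to 0.01 without replicate 1 of BY4741(yrr1Δ) in SD, where the median of all genes was also 0.01.

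INO1, which makes inositol phosphate from glucose-6-phosphate, rose with vanillin in both strains. It went from 345 and 340 CPM to 9072 and 8164 CPM in BY4741, a 25.1-fold rise (FDR = 1.92e-05), and from 398 and 499 CPM to 3554 and 2938 CPM in BY4741(yrr1Δ), a 7.23-fold rise (FDR = 0.000114). Its interaction was -1.80 ± 0.26 (FDR = 0.0577), the nearest to the threshold of all genes outside it. OPI3, the methyltransferase of phosphatidylcholine synthesis, rose by 1.62 and GIT1, the permease of glycerophosphoinositol, by 2.10 in BY4741, with log2 changes of 0.08 and 0.10 in BY4741(yrr1Δ). INO2, a subunit of their activator, was on the other side. It rose by 1.27 in BY4741(yrr1Δ) and had a log2 change of 0.20 in BY4741. Among 23 inositol and phospholipid genes 5 were below 0 and 1 above 0 at an unadjusted p under 0.05. The median was -0.20, and -0.11 without replicate 1 of BY4741 in SD.

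GPG1, whose product binds the G alpha protein Gpa2p, was at 89.0 and 93.1 CPM and then 211 and 123 CPM in BY4741 (log2 0.87, FDR = 0.102). It fell from 119 and 109 CPM to 30.7 and 29.3 CPM in BY4741(yrr1Δ) (log2 -1.92, FDR = 0.00450), and its interaction was -2.80 ± 0.37 (FDR = 0.0374 from edgeR's test). RDL1, a thiosulfate sulfurtransferase, LOG1 and EMI1 had interactions of -1.83, -1.41 and -1.90 (FDR between 0.0787 and 0.0837). EMI1 overlaps GRX2 in the annotation. The 2 copies of the ribosomal RNA precursor, RDN37-1 and RDN37-2, had identical values, since reads cannot be assigned to one of them, and both overlap their mature products. Each was at 77.3 and 81.4 CPM and then 307 and 502 CPM in BY4741, and at 176 and 93.1 CPM and then 105 and 101 CPM in BY4741(yrr1Δ), in libraries made from poly(A) RNA.

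Thiamine, iron and one-carbon genes included further members below 0. THI4, for the thiazole of thiamine, rose by 2.15 in BY4741 and had a log2 change of 0.74 in BY4741(yrr1Δ), and THI2, a regulator of the pathway, fell by 1.89 in BY4741(yrr1Δ). At an unadjusted p under 0.05, 6 of 22 thiamine genes and 8 of 30 iron uptake genes were below 0, with none above 0 in either list. The siderophore transporter ARN1 rose in both strains, by 2.25 and by 1.25, and FIT2, a cell wall mannoprotein that retains siderophores, had an interaction of -2.87 from levels of 1.96 to 30.2 CPM. In the glycine cleavage system, GCV1 and GCV2 fell in BY4741(yrr1Δ) by 1.69 and 2.92, with interactions of -1.47 and -1.89 that were -0.93 and -1.13 without replicate 1 of BY4741 with vanillin, and the purine gene ADE8 fell by 0.92. Of 29 purine and one-carbon genes 6 were below 0 and 3 above 0 at an unadjusted p under 0.05, where 11.8% and 8.68% of all genes were.

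On the high side no gene passed the FDR, against 478 at an unadjusted p under 0.05 in edgeR's test and 60 called with DESeq2. Of the 478, 104 were ribosome biogenesis genes, a list with 177 of the 5506 genes tested. In none of the lists were 303 of the 478, and 427 of the 652 genes below 0 at that p. KRS1, lysyl-tRNA synthetase, was at 635 and 711 CPM and then 465 and 464 CPM in BY4741, and at 505 and 557 CPM and then 765 and 732 CPM in BY4741(yrr1Δ). Its interaction was 1.03 ± 0.22 (FDR = 0.101). Those of VAS1 and MES1, valyl- and methionyl-tRNA synthetase, were 0.91 and 1.08. Of 21 genes for aminoacyl-tRNA synthetases and their cofactors, 10 had an interaction above 0 at an unadjusted p under 0.05 and none below 0, with a median of 0.54, between 0.41 and 0.59 when each library was left out.

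Several translation initiation genes had an interaction above 0. NIP1, a subunit of initiation factor eIF3, was at 165 and 249 CPM and then 125 and 101 CPM in BY4741, and at 180 and 139 CPM and then 256 and 286 CPM in BY4741(yrr1Δ), an interaction of 1.63 ± 0.34 (FDR = 0.101). RPG1, a further eIF3 subunit, and TIF4631, the scaffold eIF4G, had interactions of 1.07 and 1.52. Among 46 translation factors 14 were above 0 and 1 below 0 at an unadjusted p under 0.05, with a median of 0.42. In the RNA polymerase list 9 of 37 were above 0 and 1 below 0 at that p, among them RPC31 and RET1 of polymerase III with 1.48 and 1.26. The median of that list was 0.58, and it was 0.95 and 0.29 without replicates 1 and 2 of BY4741 in SD.

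**Figure D5:**
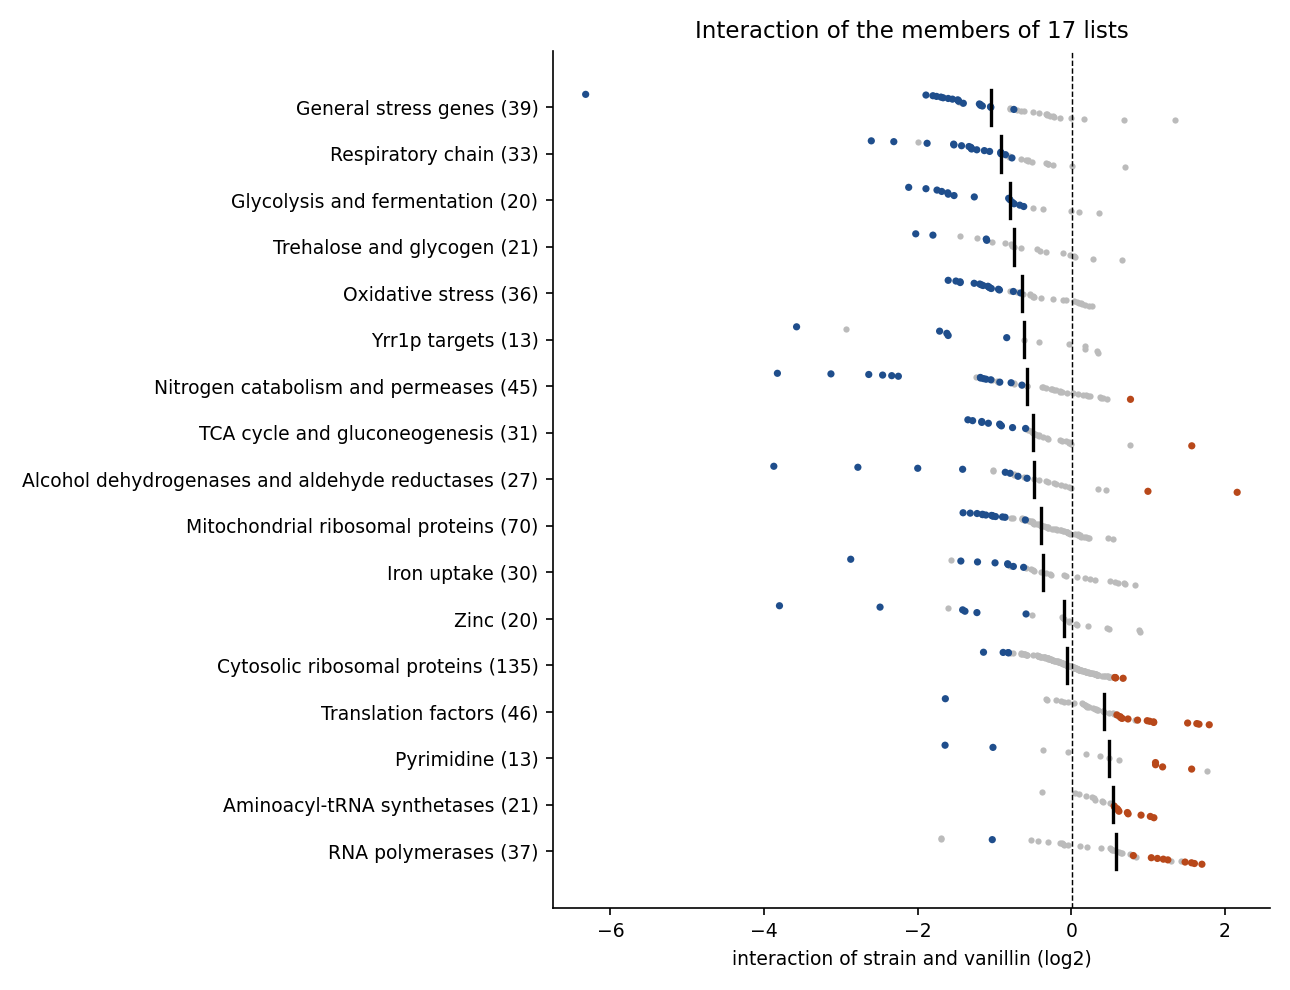
Interaction of strain and vanillin (x axis, log2) of each tested member of 17 gene lists (y axis, number of genes in brackets). Blue and orange points have an unadjusted p under 0.05, the black bar is the median of the list, and the dashed line is the median of all 5506 genes, 0.0047. Medians run from -1.05 for general stress genes to 0.58 for RNA polymerases, of which the latter was 0.29 without replicate 2 of BY4741 in SD.

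Pyrimidine genes lay on both sides of 0. URA1, dihydroorotate dehydrogenase, was at 421 and 299 CPM and then 408 and 559 CPM in BY4741, and rose from 248 and 276 CPM to 1171 and 917 CPM in BY4741(yrr1Δ), a 3.98-fold rise (FDR = 0.00287). Its interaction was 1.57 ± 0.33 (FDR = 0.101). FUR1, which salvages uracil, fell by 1.53 in BY4741 and had a log2 change of -0.43 in BY4741(yrr1Δ). On the other side, URA10, the minor orotate phosphoribosyltransferase, fell by 1.93 in BY4741(yrr1Δ), and URA8, the minor CTP synthase, rose by 1.15 in BY4741. Both strains lack URA3, which acts in this pathway. Of the 13 genes 4 were above 0 and 2 below 0 at an unadjusted p under 0.05.

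The other genes with the smallest p on the high side had varied roles. PFK27, which makes fructose-2,6-bisphosphate, had an interaction of 1.48, the kinase gene SCH9 one of 1.21, TSC11, a subunit of TOR complex 2, one of 1.32, and the mating signal regulator SST2 one of 1.29. PTP3, a tyrosine phosphatase, RAX2, which marks the bud site, FLC3, RSN1 and YOR342C lay between 1.21 and 1.46. All had an FDR between 0.101 and 0.109 in edgeR's test. The transposon genes YDR261C-D and YLR410W-A belong to families of near-identical copies, and their counts are uncertain. YDR261C-D had an interaction of 2.65, and YLR410W-A, which overlaps YLR410W-B, had 0 and 0 counts in BY4741(yrr1Δ) in SD and 19 and 13 with vanillin, at least 4.68-fold higher against a floor of 3 counts per library.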

How the data were processed

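RNA was measured by poly(A) RNA-seq on an Illumina instrument in 8 libraries, 4 conditions with 2 biological replicates each. The authors deposited expected counts per gene, which need not be whole (3.51 to 4.12% of values per library were not), and FPKM values normalized for gene length and depth. Per the submitters' processing notes the genome was R64, and the aligner and counter are not given in the sources used here. The deposited comparison tables hold the authors' mean FPKM, log2 ratios and a probability, and were not used. One table header reads 6 mM where the labels give 5 mM vanillin, and the labels were followed.

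Expected counts were rounded to whole numbers. One model of the 4 conditions was fitted with edgeR 4.0.16 (R 4.3.3) using its default filter on low counts, TMM factors and the quasi-likelihood test, with Benjamini-Hochberg adjustment over 5506 genes and calls at an FDR of 0.05. The common biological coefficient of variation was 0.189. The test was run on simulated counts with known changes beforehand. Gene lists were described by counts and medians. Genes named were, in each direction, up to 15 by size of interaction at that FDR, filled up by smallest p, up to 5 per list described by smallest p, the genes with opposite responses, and genes the study names. Members outside this rule (such as AZR1, MCD4, ZRG17 and STE2) were chosen after their values were seen. The lists and members were chosen with earlier results of these data known. All 5782 gene IDs matched RefSeq, and 6 of 1481 list entries had no gene in the data. Alternatives were other scaling and filters, DESeq2 1.42.0, limma 3.58.1 on log2(FPKM + 1) and log2(FPKM + 0.1), the replicate number as a block, other thresholds and each library left out.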

Additional observations from a re-analysis of the deposited data

Results flagged for a closer look

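For 5 genes the vanillin responses of the strains differed by the test of the difference itself. The interaction was -3.80 for ZPS1, -3.58 for SNG1, -2.80 for GPG1, -2.12 for TDH1 and -2.0 for BDH1, with an FDR of 0.0374 each from edgeR's quasi-likelihood test. TDH1 and BDH1 rose in BY4741 and fell in BY4741(yrr1Δ), and ZPS1 fell in both strains.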

How the results depend on the processing

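The count of 5 interactions depended on the processing. It was 216 (60 above 0) with the DESeq2 Wald test, 14 at an FDR of 0.1, 0 at the study's limits of a 2-fold change and an FDR of 0.001, and 0 to 93 when each library was left out, with all 5 genes among the 216 and among the 93 found without replicate 2 of BY4741(yrr1Δ) in SD. The count at an unadjusted p under 0.05 went from 1130 to between 669 and 1174 when each library was left out, lowest without replicate 2 of BY4741 with vanillin. Its share above 0 was 42.3%, and 67.8% with library size alone and 66.8% on log2(FPKM + 1), where the median of all genes was 0.22 and 0.24. The 173 genes called for the response of BY4741 became 290 with DESeq2, 364 at an FDR of 0.1, 10 at the study's limits and 32 to 214 when each library was left out, and 74.0% of them rose, against 63.2% with library size alone. The 617 genes called for BY4741(yrr1Δ) became 1033, 15 and 194 to 595 at the last 3 of these settings, and 40.8% of them rose, against 55.7% with library size alone. With the replicate number as a block, 0, 99 and 400 genes were called for the interaction, BY4741 and BY4741(yrr1Δ), but same-numbered libraries did not deviate together (correlations of -0.58 to 0.18), so the number does not pair them. The value of -0.58 was for the SD libraries of both strains, whose replicate differences ran in opposite order. What part this has in the interaction was not tested. Of 1583 values for 99 named genes, 1 reversed, that of YOR1, which ran from -0.034 without replicate 2 of BY4741(yrr1Δ) with vanillin (FDR = 0.965) to 0.375 without replicate 1. Relative to the shift of all genes, no list median changed sign with library size alone. On log2(FPKM + 1) 1 of 43 did, that of the cytosolic ribosomal proteins. Without taking off that shift, 11 changed sign when a library was left out. Among those described here were the zinc, heat shock, cytosolic ribosomal protein, amino acid synthesis, cell wall and hexose transporter lists. The heat shock median of 0.039 without replicate 2 of BY4741(yrr1Δ) in SD did not exceed the 0.042 of all genes there. With 2 replicates a condition the spread was estimated from few libraries, and the cause of these changes was not tested.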

Other observations

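Lists not described above had medians on both sides of that of all genes. The median was -0.53 for 9 homologues of monocarboxylate transporters, 0.30 for 18 calcium signalling genes and 0.39 for 17 hexose transporter genes. These were -0.18 and 0.14 without replicate 1 of BY4741 in SD and -0.33 without replicate 1 of BY4741(yrr1Δ) with vanillin. The median interaction was -0.20 for 12 genes of the Ehrlich pathway, which turns amino acids into fusel alcohols, -0.18 for 29 sterol synthesis genes, -0.19 for 36 proteasome genes, 0.07 for 66 amino acid synthesis genes and 0.12 for 54 cell wall genes, with 3, 3, 3, 8 and 3 members below 0 and 0, 2, 0, 3 and 3 above 0 at an unadjusted p under 0.05. Over all genes, 11.8% were below 0 and 8.68% above 0 at that p. The amino acid synthesis and cell wall medians were -0.06 and -0.11 without replicate 1 of BY4741(yrr1Δ) with vanillin, the Ehrlich and proteasome medians were -0.04 and -0.11 without replicate 2 of BY4741 with vanillin, and the sterol median was -0.09 without replicate 1 of BY4741(yrr1Δ) in SD. Of 26 autophagy and vacuole genes 8 were below 0 and none above 0 at an unadjusted p under 0.05. Their median was -0.35, and 9 of them fell in BY4741(yrr1Δ) at an FDR of 0.05. The alpha-factor gene MF(ALPHA)1 had 26 and 22 counts in BY4741 with vanillin and 0 to 4 in the 6 other libraries.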
